A study of Homo sapiens with 2 samples.

Results

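The genes described here are the BTB-domain adaptors of CUL3 ubiquitin ligases in A549 cells. A gene was taken when its symbol alone names a line of the table and starts with KCTD, KLHL, BTBD or RHOBTB, or is SPOP, SPOPL or CUL3. This gave 53 of 12609 named genes, with 17 KCTD, 21 KLHL, 9 BTBD and 3 RHOBTB genes. All 53 are annotated as protein coding, and none was chosen by its measured value, although KCTD9 had been singled out with its value known.

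Cullin-RING ligases mark proteins with ubiquitin. CUL3 is the scaffold of one class: it holds the RING protein RBX1 at one end and, at the other, a BTB-domain protein that also binds the substrate, so that each BTB protein gives the ligase another set of targets. KLHL proteins carry kelch repeats that bind the substrate, SPOP and SPOPL use a MATH domain, and RHOBTB proteins join BTB domains to an atypical GTPase domain. KCTD proteins carry a BTB domain like that of potassium channels. Some of them, such as KCTD1, KCTD12 and KCTD15, are known not to bind CUL3, so membership by name does not make every gene a ligase adaptor.

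RNA-seq had been made from A549, an established human lung adenocarcinoma line, with 1 library labelled wild type and 1 labelled MYOCD knockdown. MYOCD encodes myocardin, a coactivator of serum response factor. Both sample labels list doxycycline for 72 h, while the series text calls the wild type cells untreated, and the knockdown sample is titled MYOCD-/- but carries the genotype label knockdown. The sources used here do not say how the knockdown was made or whether it is 1 clone.

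The deposited unit is RPKM, in which read numbers are divided by the length of the transcript and by library size, so levels can be compared between genes. Pairs of levels are written in the order wild type, knockdown. No counts were given, so the depth is unknown, and with 1 library per group there is no replicate error and no test for any value below. In such bulk RNA, fewer cells with a message and less of it per cell cannot be told apart. MYOCD itself was barely detected in either library, at 0.881 and 0.400 RPKM. The higher library of every line in the table was at least 0.652 RPKM. So near this floor, the values do not settle by how much the MYOCD message was reduced. The epithelial keratin KRT8 had 1545 and 1521 RPKM. All 7 of the A549 markers looked for were present, the lowest being EPCAM at 2.24 and 2.15 RPKM. Of 9 markers of blood, vessel and stromal cells only COL1A1, at 2.76 and 2.41 RPKM, had a line.

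Most of these genes had similar levels in both libraries, and KCTD9 stood apart. Differences are given as log2((knockdown RPKM + 1) / (wild type RPKM + 1)), called the log2 change, over genes averaging 1 RPKM or more across the libraries, which 52 of the 53 did. KCTD19, the gene under that mean, is known from male meiosis and had 1.24 and 0.629 RPKM. Of the 52, 28 were above 0 and 24 below, with a median of 0.03, beside 0.01 over all 11841 named genes past the same minimum. Rescaling the libraries to equal sums over all loci shifts every plain log2 ratio, without the added 1 RPKM, by -0.20. The log2 changes of the 51 members still past the minimum then shift by -0.19 to -0.09. Of these, 11 pass from above to below 0 (CUL3, KCTD1, KCTD2, KCTD3, KCTD15, KLHL2, KLHL8, KLHL9, KLHL21, BTBD9 and RHOBTB1). The middle 50% of the 52 ran from -0.20 to 0.23, and that of all named genes from -0.15 to 0.16.

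Of the 52 genes, 1 was at least 2-fold lower and 0 were at least 2-fold higher in the knockdown library. Among all named genes 0.735% were at least 2-fold lower and 0.625% at least 2-fold higher. Among 9378 protein-coding genes with no microRNA, small nucleolar or small Cajal body RNA gene inside them on the same strand, the shares were 0.373% and 0.107%. At 1.5-fold, 2 of the 52 were lower (KCTD9 and SPOPL) and 0 higher, beside 3.25% lower and 1.63% higher of all named genes, and 2.77% and 0.917% of those protein-coding genes. A count of 2 in 52 is near these backgrounds, so the list as a whole is not set apart by it.

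**Figure D1:**
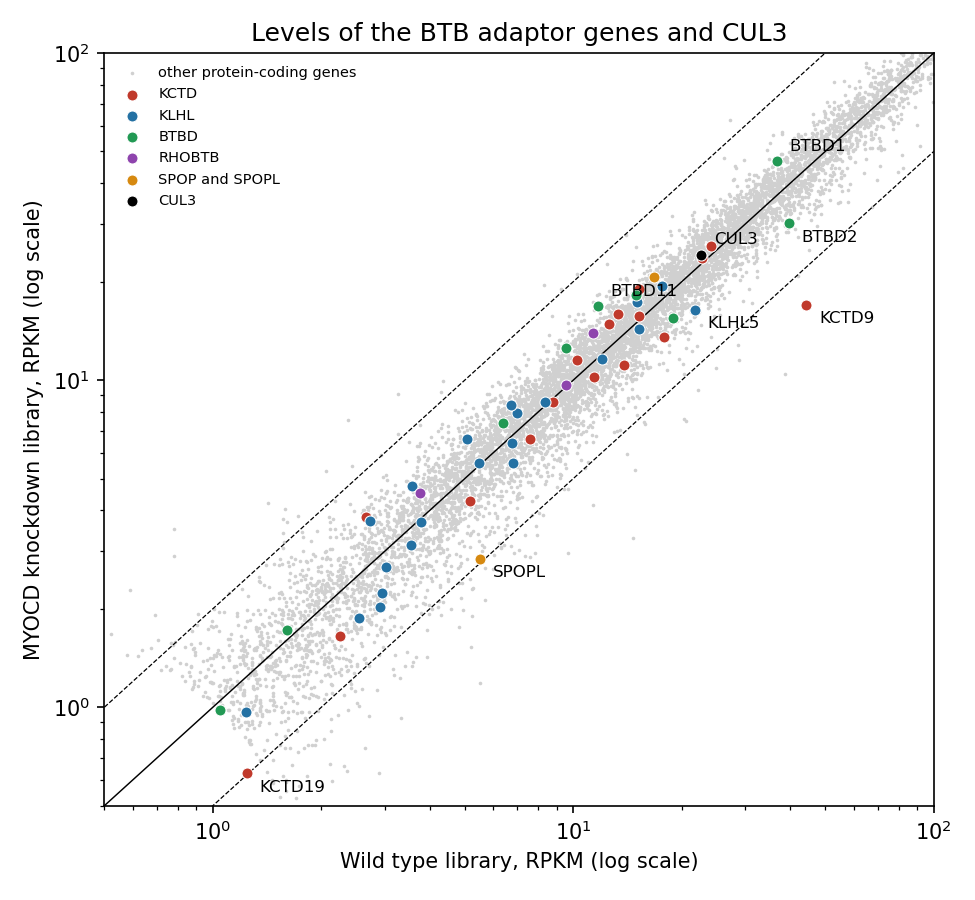
RPKM in the wild type library (x axis) against the MYOCD knockdown library (y axis), both on log scales, for the 53 genes coloured by family and for other protein-coding genes within the plotted range in grey. The solid line marks equal levels and the dashed lines a plain 2-fold difference: KCTD9, at 44.4 and 17.0 RPKM, is the member farthest from the solid line, and SPOPL and KCTD19 lie near the lower dashed line.

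KCTD9, a KCTD protein that binds CUL3, had the highest level of all 53 genes in the wild type library, 44.4 RPKM. In the knockdown library it had 17.0 RPKM, which was 38.4% of the wild type level and the 11th highest of the 53. This is a 2.61-fold difference and a log2 change of -1.33. The other 15 KCTD genes past the minimum ran from -0.37 to 0.39, so the gap from KCTD9 to KCTD13, the next lowest of the family, was 0.96. Among the 9378 protein-coding genes, 9 had a log2 change at least as low, KCTD9 included. Of 1759 of these genes whose mean level lay within 1.5-fold of that of KCTD9, 1 was as low. Among all 11841 named genes, 49 (0.414%) were as low, KCTD9 included. Of 2156 other named genes within the same range of levels, 8 (0.371%) were.

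Because KCTD9 was the most abundant member, its difference carried through to the family total. The 17 KCTD genes summed to 228.6 and 203.7 RPKM. Without KCTD9 the sums were 184.2 and 186.7 RPKM, so the remainder of the family was level on the deposited scale. KCTD9 made up 19.4% of the family sum in wild type cells and 8.35% in knockdown cells. Over all 53 genes the sums were 592.8 and 582.5 RPKM with KCTD9, and 548.5 and 565.5 without it.

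By GENCODE release 29 (GRCh38), KCTD9 occupies chromosome 8 from 25427847 to 25458476 and is read from the minus strand. Its nearest protein-coding neighbours were lower too, by less, as were 47.9% of all named genes to some degree. CDCA2, a mitotic chromatin protein whose gene starts 520 bases away on the opposite strand, had 20.7 and 16.7 RPKM, a log2 change of -0.29. GNRH1, the gonadotropin-releasing hormone gene, lies 3192 bases away on the other side and on the same strand. It was low in both libraries, at 2.64 and 1.41 RPKM, a log2 change of -0.59. The annotation lists 6 pseudogenes named as copies of KCTD9, more than for any other member, and reads shared with such copies make the KCTD9 level uncertain.

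SPOPL, the paralog of the substrate receptor SPOP, was the second lowest of the 52. It had 5.52 and 2.85 RPKM, which puts the knockdown level at 51.6% of the wild type level and the log2 change at -0.76. Of 1500 protein-coding genes with a mean within 1.5-fold of that of SPOPL, 40 (2.67%) were as low. SPOP, which is often mutated in prostate and endometrial cancer, went the other way, with 16.7 and 20.7 RPKM, a log2 change of 0.29. SPOPL can join SPOP in mixed oligomers, and the summed levels of the pair were 22.3 and 23.6 RPKM. SPOPL thus made up less of the pair in the knockdown library, at a sum nearly equal on the deposited scale.

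The SPOPL promoter is shown because it is the only one found among the members' promoters to hold a CArG box, the site bound by serum response factor, for which myocardin is a coactivator. Promoters of 300 bases, from 250 before to 50 after a transcription start, came from RefSeq (GRCh38.p14), in which 47 of the 53 genes had 68 promoters by symbol. The search was for the CArG box in its full form, which reads as the same kind of site on both strands. It was found in 1 of the 68 promoters (1.47%), beside 454 of 35116 promoters of all genes (1.29%). The SPOPL promoter lies on the plus strand at chr2:138501520-138501819, and its box, in capitals, starts 213 bases before the transcription start.
SPOPL promoter: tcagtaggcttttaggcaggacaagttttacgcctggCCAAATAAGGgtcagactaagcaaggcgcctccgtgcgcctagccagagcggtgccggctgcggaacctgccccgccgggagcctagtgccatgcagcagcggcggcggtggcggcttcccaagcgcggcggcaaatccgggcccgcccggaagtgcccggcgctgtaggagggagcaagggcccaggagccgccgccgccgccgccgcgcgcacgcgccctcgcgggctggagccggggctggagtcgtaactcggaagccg

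A box in this window is a match of letters and no measurement of binding. Among protein-coding genes with a RefSeq promoter, the 105 with a CArG box had a median log2 change of -0.03. Of these, 4 (3.81%) were at least 1.5-fold lower, SPOPL among them. The 7414 with none had a median of 0.02, with 170 (2.29%) at least 1.5-fold lower. KCTD9 was among the genes with no match in this window.

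A second sequence feature of SPOPL lies in its message. The 7-base word AATATGC had been noticed in an earlier search of these same data as common in the 3′ UTRs of genes that were lower in the knockdown library, so its presence in a lower gene is not independent of that choice. In the longest annotated 3′ UTR (GENCODE release 29), read on the message strand only, the word occurred in 5 of the 52 genes (9.62%), beside 12.5% of 9361 protein-coding genes. SPOPL held 3 copies, which 0.299% of those genes reached or passed, BTBD3 held 2, and CUL3, KCTD15 and KCTD20 held 1 each. The sites of the genes with most copies and of CUL3 are shown, with the word in capitals and 9 bases on either side.
SPOPL site 1: cagggggcaAATATGCaatgagttg
SPOPL site 2: tttcatttaAATATGCtttactttg
SPOPL site 3: taaaatattAATATGCatttatttt
BTBD3 site 1: gcatataagAATATGCagtttgaaa
BTBD3 site 2: atgaaggctAATATGCttgctttat
CUL3 site: agacttgcaAATATGCttttattgc

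Among the members the word and the difference did not always go together. The 2 genes with several copies, SPOPL and BTBD3, had log2 changes of -0.76 and -0.27, while the 3 with 1 copy, CUL3, KCTD15 and KCTD20, had 0.09, 0.05 and 0.22. KCTD9, the lowest gene, has no copy in a 3′ UTR of 2010 bases. Across the protein-coding genes the median was 0.02 with no copy, -0.01 with 1 copy, -0.06 with 2 and -0.10 with 3 or more. The last of these groups holds 28 genes with long UTRs, of median length 7806 bases against 1485 with no copy, so copies and length go together. Over 9361 protein-coding genes Spearman's rank correlation between 3′ UTR length and the log2 change was 0.12. The part of length in these medians was not tested.

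CUL3 itself differed little. The scaffold had 22.6 and 24.2 RPKM, a log2 change of 0.09. Its partners were as level: 18 of 20 listed genes of the ligase core and of neddylation, the attachment of NEDD8 that switches cullins on, passed the minimum, with a median of 0.04 and 0 past 1.5-fold. NEDD8 itself had no line of its own, so its level is not known here, and CAND2 was under the minimum. RBX1, the RING subunit, had 50.7 and 52.0 RPKM. DCUN1D4 and DCUN1D1, which promote cullin neddylation, were the highest of that list at 0.36 and 0.25. UBE2R2, a ubiquitin-conjugating enzyme, and UBA3, a subunit of the enzyme that activates NEDD8, were the lowest at -0.28 and -0.18.

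The COP9 signalosome, which removes NEDD8, and the other cullins were similarly level. All 9 signalosome genes passed, with a median of 0.00, from -0.30 in COPS7A to 0.17 in COPS7B, which encode alternative forms of one subunit. COPS8 was next highest at 0.14 and COPS6 next lowest at -0.04. COPS7A had 40.2 and 32.4 RPKM and COPS7B 21.8 and 24.5. The 7 other cullins had a median of 0.11, from -0.23 in CUL7 and -0.03 in CUL4B to 0.15 in CUL9 and 0.16 in CUL1, with 0 past 1.5-fold.

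**Figure D2:**
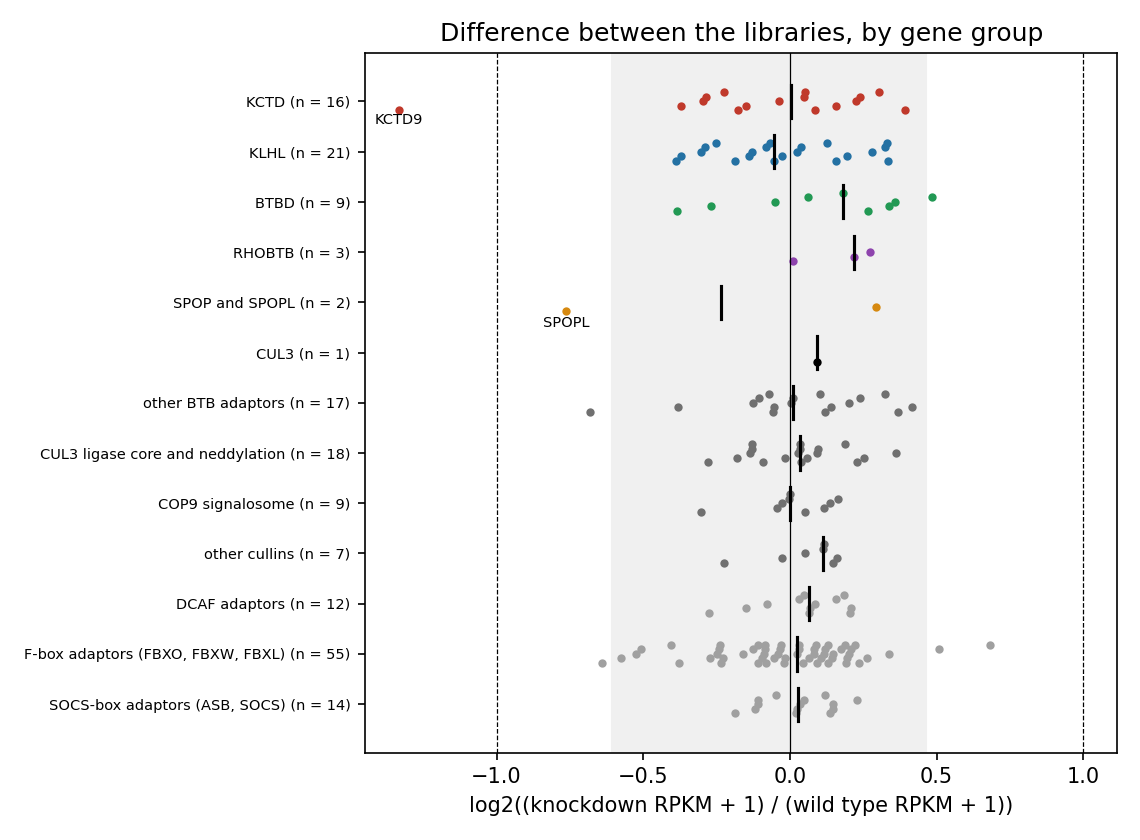
Log2 change of each gene past the minimum (points) and the median of its group (vertical bars), with members coloured by family and related groups in grey. The shaded band holds the central 95% of the 9378 protein-coding genes described above and dashed lines mark 2-fold: KCTD9 at -1.33 and SPOPL at -0.76 lie below the band, BTBD11 at 0.49 lies above it, and CUL3 lies at 0.09. Of the grey points, ABTB1 at -0.68 and FBXO2 at -0.64 lie below it and FBXO48 at 0.51 and FBXO4 at 0.68 above.

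The other KCTD genes fall into groups of related role, and within most of these the genes differed in direction. Of all named genes 6165 were above 0 and 5676 below, so mixed directions are common in any small group. The changes in these groups all lay inside the band that held the central 95% of the 9378 protein-coding genes (-0.61 to 0.46). KCTD10, KCTD13 and TNFAIP1 are adaptors that target the GTPase RHOA. KCTD10 had 15.2 and 19.0 RPKM, a log2 change of 0.30, and KCTD13 had 17.8 and 13.5 RPKM, a log2 change of -0.37. TNFAIP1, which is outside the symbol rule, had 22.8 and 28.7 RPKM, a log2 change of 0.32. The group summed to 55.8 and 61.3 RPKM, with KCTD10 and TNFAIP1 higher and KCTD13 lower. RHOA itself had 358.6 and 360.7 RPKM.

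KCTD6, KCTD11 and KCTD21 act with CUL3 on the deacetylase HDAC1 and restrain Hedgehog signalling. KCTD21 was the highest of the family, with 2.67 and 3.81 RPKM, a log2 change of 0.39. KCTD11 had 7.58 and 6.59 RPKM, a log2 change of -0.18. KCTD6 was nearly level at 8.81 and 8.56 RPKM. The sums of the group were 19.1 and 19.0 RPKM.

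KCTD5, which targets G protein beta subunits, had 13.3 and 15.9 RPKM, a log2 change of 0.24. Its relative KCTD2 had 10.3 and 11.6 RPKM, a log2 change of 0.16. KCTD17, the relative that acts on the ciliary protein trichoplein, had 13.8 and 11.1 RPKM, a log2 change of -0.29. The paralogs of this group thus differed in direction as well, with sums of 37.4 and 38.6 RPKM.

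KCTD1 and KCTD15, which repress AP-2 transcription factors and do not bind CUL3, were the most alike pair. KCTD1 had 22.8 and 23.6 RPKM and KCTD15 had 15.2 and 15.7, with log2 changes of 0.05 for both. KCTD20, which with BTBD10 promotes phosphorylation of AKT, had 12.6 and 14.9 RPKM, a log2 change of 0.22, and BTBD10 had 14.9 and 18.2 RPKM, a log2 change of 0.27. In both of these pairs the members had nearly the same log2 change.

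KCTD3, a regulator of HCN channels, was the second most abundant KCTD gene in the wild type library, with 24.1 and 25.6 RPKM. KCTD18 had 11.4 and 10.2 RPKM. KCTD7, whose loss causes a myoclonic epilepsy, had 5.16 and 4.27 RPKM, a log2 change of -0.23. KCTD12, an auxiliary subunit of GABA-B receptors, was low in both libraries, at 2.25 and 1.65 RPKM, a log2 change of -0.29. Apart from KCTD9, no KCTD gene past the minimum differed by 1.5-fold.

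**Figure D3:**
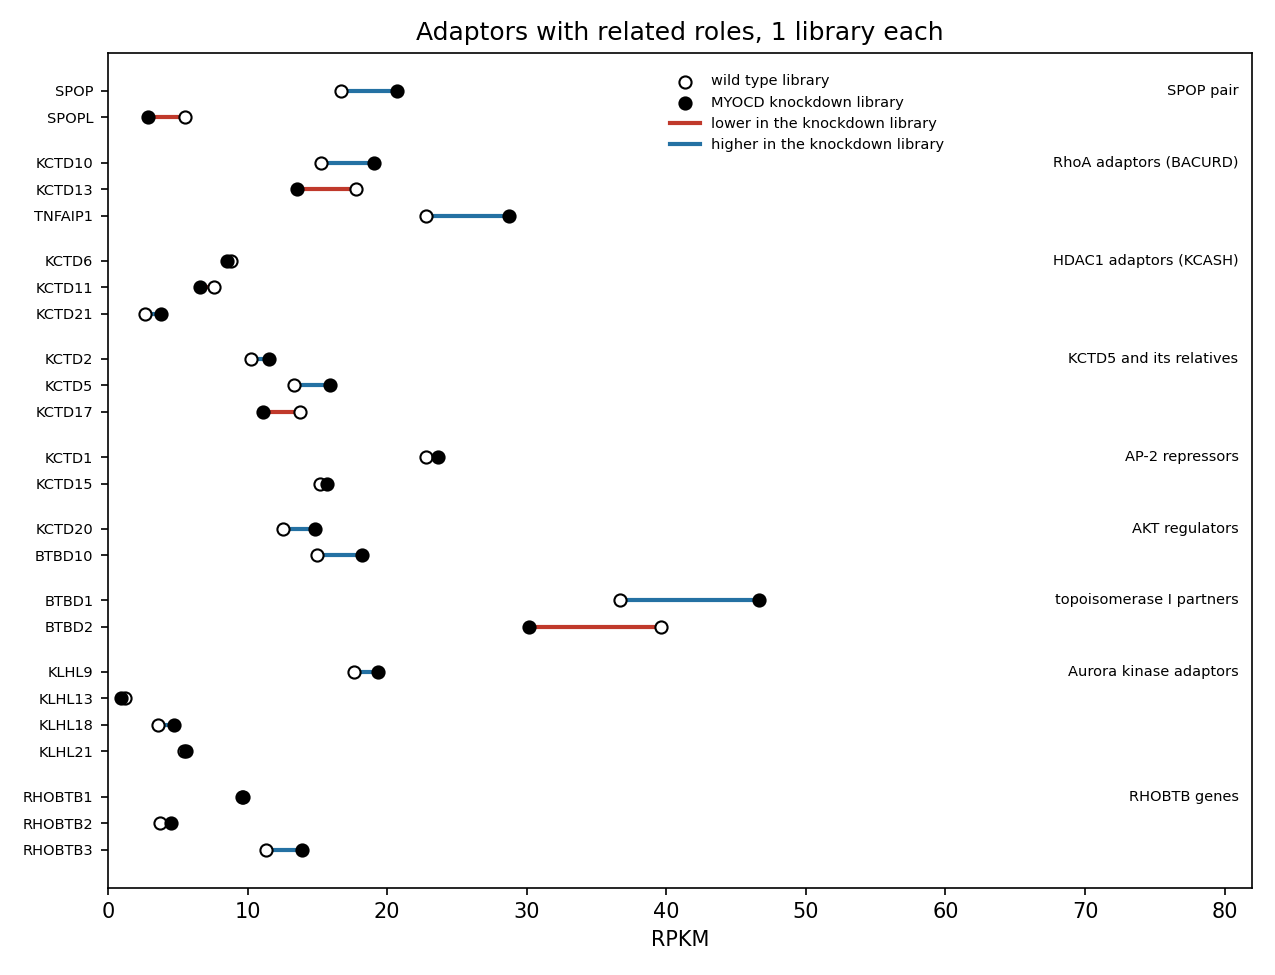
RPKM (x axis) in the wild type library (open circles) and the MYOCD knockdown library (filled circles), 1 library each, for adaptors grouped by related role. Red lines join genes lower in the knockdown library and blue lines genes higher in it: SPOP and SPOPL, KCTD10 and KCTD13, and BTBD1 and BTBD2 lie on opposite sides.

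The 21 KLHL genes had lower levels than the KCTD genes, with a median mean level of 5.84 RPKM against 13.1, and all 21 stayed within 1.5-fold. Their median log2 change was -0.05, with 12 below 0 and 9 above. KLHL5 was the lowest, with 21.8 and 16.4 RPKM, a log2 change of -0.39. It was also the most abundant KLHL gene in the wild type library, ahead of KLHL9 and KLHL7.

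KLHL24, which directs degradation of keratin 14, had 2.91 and 2.02 RPKM, a log2 change of -0.37. KLHL29 had 2.54 and 1.87 RPKM and KLHL26 had 2.95 and 2.23, with log2 changes of -0.30 and -0.29. These genes, the lowest after KLHL5, were all under 3 RPKM in both libraries. KLHL17, an actin-binding kelch protein of neurons, had 6.82 and 5.57 RPKM.

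At the other end, KLHL4, KLHL18, KLHL20 and KLHL15 were the highest. KLHL4 had 2.73 and 3.70 RPKM, a log2 change of 0.33. KLHL20, which targets the tumour suppressors PML and DAPK1, had 5.07 and 6.60 RPKM, a log2 change of 0.32. KLHL15, an adaptor for a regulatory subunit of phosphatase PP2A, had 6.73 and 8.37 RPKM, a log2 change of 0.28.

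Of the KLHL genes known for mitosis, KLHL18, an adaptor linked to Aurora A, had 3.56 and 4.75 RPKM, a log2 change of 0.33. AURKA, the message of that kinase, was the lowest of 32 measured genes for known substrates of these ligases, with 69.8 and 40.9 RPKM, a log2 change of -0.76. KLHL9, KLHL13 and KLHL21 act on Aurora B. KLHL9 had 17.7 and 19.3 RPKM, KLHL13 had 1.24 and 0.966 and KLHL21 had 5.46 and 5.57. KLHL22, which acts on PLK1, had 6.77 and 6.41 RPKM. Unlike AURKA, the message of Aurora B, AURKB, had 72.1 and 72.0 RPKM, a log2 change of -0.003. PLK1 had 92.6 and 86.0 RPKM, a log2 change of -0.10. Apart from KLHL18, these mitotic adaptors had log2 changes between -0.19 and 0.13.

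KLHL12, which ubiquitinates the COPII coat protein SEC31 and Dishevelled, had 15.0 and 17.3 RPKM, a log2 change of 0.19. KLHL7, mutated in a form of retinitis pigmentosa, had 15.2 and 14.4 RPKM. KLHL2, an adaptor for WNK kinases, had 8.36 and 8.60 RPKM. KLHL25, an adaptor for the translation inhibitor 4E-BP1, had 3.03 and 2.68 RPKM. The remaining 4, KLHL8, KLHL11, KLHL28 and KLHL36, had log2 changes from -0.14 to 0.16.

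The 9 BTBD genes had a median log2 change of 0.18, with 6 above 0, beside 6165 of the 11841 named genes above 0. With the libraries rescaled to equal sums over all loci that median was 0.04, and BTBD9 lay at -0.06. BTBD11, now named ABTB3, joins ankyrin repeats to a BTB domain and was the highest of all 52 genes, with 11.7 and 16.8 RPKM, a log2 change of 0.49. By the annotation it holds a small nucleolar RNA gene, and KCTD1 and KLHL25 hold microRNA genes, so these 3 levels may not be those of the messages alone. Among the 9378 protein-coding genes, which leave out BTBD11 for its small nucleolar RNA gene, 2.07% were at least as high as BTBD11. Among all 11841 named genes 2.88% were, BTBD11 included. BTBD6, which acts in the turnover of the transcription factor PLZF, had 9.53 and 12.5 RPKM, a log2 change of 0.36.

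BTBD1 and BTBD2, close relatives that bind topoisomerase I, were the most abundant members after KCTD9 in the wild type library and went opposite ways. BTBD1 had 36.7 and 46.7 RPKM, a log2 change of 0.34. BTBD2 had 39.6 and 30.1 RPKM, a log2 change of -0.38. Both changes lay inside the band that held the central 95% of the 9378 protein-coding genes. Their sums were 76.3 and 76.8 RPKM, so the pair was level in total on the deposited scale. TOP1 itself had 43.0 and 50.9 RPKM. In the knockdown library BTBD1 and BTBD2 ranked first and second of the 53.

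BTBD3, which orients dendrites in cortical neurons, had 18.9 and 15.5 RPKM, a log2 change of -0.27. BTBD7, needed for branching of epithelial glands, had 6.40 and 7.38 RPKM, a log2 change of 0.18. BTBD9, a risk gene for restless legs syndrome, had 1.60 and 1.72 RPKM, and BTBD19 had 1.05 and 0.977. These last genes were near the floor of the table, in which the higher library of every line was at least 0.652 RPKM.

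The RHOBTB genes were level or higher. RHOBTB3, which acts at the Golgi, had 11.3 and 13.9 RPKM, a log2 change of 0.27. RHOBTB2, a candidate tumour suppressor, had 3.76 and 4.53 RPKM, a log2 change of 0.22. RHOBTB1 had 9.57 and 9.65 RPKM, a log2 change of 0.01.

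BTB adaptors listed under other symbols gave a similar picture. Of 22 such genes 19 had a line of their own and 17 passed the minimum, with a median log2 change of 0.01, and 1 was past 1.5-fold. That gene was ABTB1, a relative of BTBD11, with 9.48 and 5.53 RPKM, a log2 change of -0.68. KBTBD11 was next lowest at -0.38. KLHDC5, now named KLHL42, and ENC1, a kelch protein of neurons, were the highest at 0.42 and 0.37. KEAP1, the adaptor that restrains NRF2 and is mutated in A549, had 25.7 and 29.8 RPKM.

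Messages of known substrates were a little lower as a list. Of 36 listed 33 had a line of their own, and ACLY, GLI3 and TUT1 had none. Of the 36, 32 passed, with 22 below 0 (68.8%, beside 47.9% of all named genes) and a median of -0.04. Most of the 32 have a longest coding transcript above 46.5% GC, where 56.3% of protein-coding genes were below 0. The part of GC content in this was not tested. Besides AURKA, the lowest of the list was DVL2, a Dishevelled protein, with 25.8 and 19.6 RPKM. The highest were TOP1 and IRS1, the insulin receptor substrate, at 0.24 and 0.23. Since these ligases act on proteins, the levels of these messages do not measure ligase activity.

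Adaptors of other cullins gave the frame for these values. The 55 lines with the prefixes of F-box adaptors of CUL1 ligases had a median of 0.02. They include 2 transcripts of the opposite strand by name, FBXO22OS and FBXL19-AS1. Without these, a choice made after seeing the data, the 53 F-box genes had a median of -0.02, with 1 at least 1.5-fold lower, FBXO2, and 1 at least 1.5-fold higher, FBXO4. DCAF adaptors of CUL4 ligases (12 genes) had a median of 0.07, and SOCS-box adaptors of CUL5 ligases (14 genes) had 0.03, with 0 past 1.5-fold in either. The lowest gene of these 3 families, FBXO2, had a log2 change of -0.64, so both KCTD9 and SPOPL lay below all 79 of these genes. No difference between the families was tested.

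Across the table the difference between the libraries moved with GC content, and the members showed little of this. Over 9378 protein-coding genes Spearman's rank correlation between the log2 change and the GC content of the longest coding transcript was -0.28. Over the 52 members it was -0.04, and without KCTD9 -0.09. The points share the same 2 libraries and are not independent, so these are descriptions, and the difference between them was not tested. KCTD9, at 39.2% GC, and SPOPL, at 35.7%, are on the low-GC side, where other genes were on the whole higher. Of 4029 protein-coding genes at or below the members' median of 46.5% GC, 36.4% were below 0, and above it 56.3% of 5349 were. Among the members 11 of 26 and 13 of 26 were below 0. The part of GC content in any single difference was not tested.

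**Figure D4:**
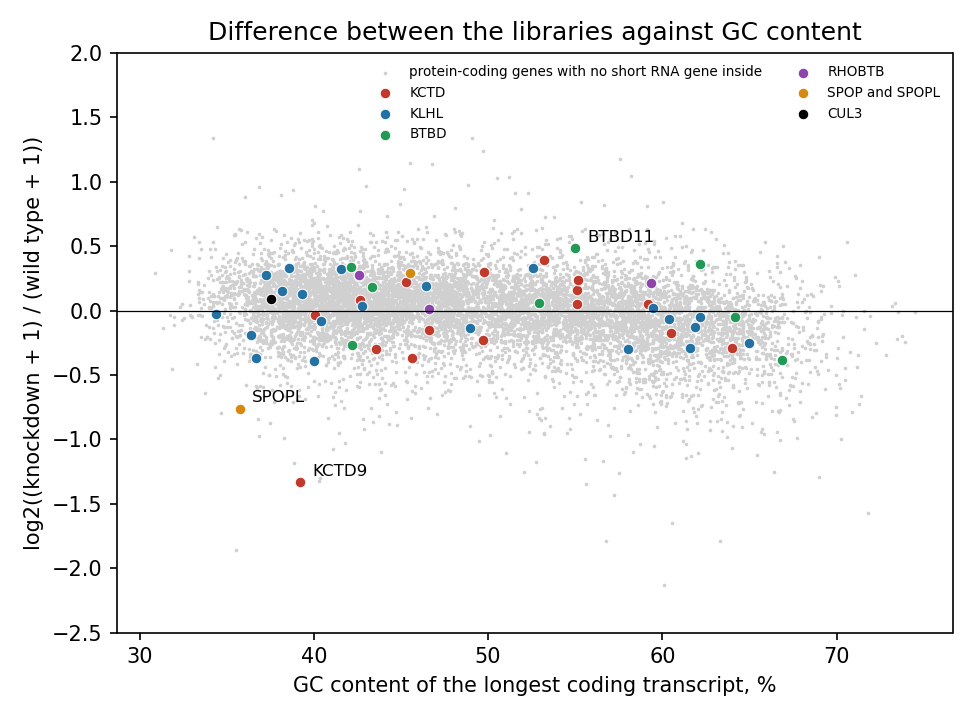
Log2 change (y axis) against the GC content of the longest coding transcript in percent (x axis), for the 52 members coloured by family and for the 9378 protein-coding genes in grey. The grey points drift downwards to the right (rank correlation of -0.28), while KCTD9 and SPOPL lie low at 39.2% and 35.7% GC.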

How the data were processed

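The deposited table gives, for each locus, 1 RPKM value for either library, which the authors calculated. Per the submitters' processing notes, which state no roles, TopHat2 (2.0.10), Cufflinks (2.2.1) and 2 builds, GRCh38.p12 and BDGP5 of the fruit fly, were used. The sources used here do not give the annotation, filters or strand setting, so reads of overlapping or antisense genes may be included.

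Of 14952 loci, 1909 had no gene name (12.8%), 308 named several genes and 21 held a name turned into a date. These were left out, and lines of the same name were summed. Log2 changes used a pseudocount of 1 RPKM, which understates differences of low genes, and genes averaging 1 RPKM or more were described. Members, lists and role groups were chosen with earlier results of these data known. Genes are named by fixed ranks in each family or list (the 4 highest and 4 lowest changes and the 3 highest levels, 2 and 2 in other lists), and other members were added for their role. Positions, UTRs and GC content came from GENCODE release 29, whose symbols matched 88.1% of named genes. The alternatives tried were pseudocount, minimum level, scaling and choice of lines. Python 3.11.15, numpy 2.4.6 and pandas 2.3.3 were used, and the scripts were tested on simulated data.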

Additional observations from a re-analysis of the deposited data

How the results depend on the processing

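Of 12 alternative settings, none changed the sign of KCTD9 or SPOPL, which was largely fixed in advance. A pseudocount cannot change a sign, and the largest scaling shift was -0.20 in the plain log2 ratio. The settings for the minimum level and for the choice of lines left the values of the members kept as they were. KCTD9 had -1.16 with a pseudocount of 5 RPKM and -1.52 with both libraries rescaled to the same sum over all loci. The number of members at least 1.5-fold lower was 1 with that pseudocount, and 1 with a mean of at least 5 RPKM, which left 36 members, 13 of them below 0, and left out SPOPL. Equal sums over all loci shifted plain log2 ratios by -0.20 and turned 11 members from above to below 0. The median was then -0.14 over 51 members, beside -0.17 for all named genes. The KCTD median, 0.01, was -0.18 under that scaling. Knockdown levels are multiplied by 0.871 in it, so the group sums called level above are lower in the knockdown library under that scaling. The KLHL median, -0.05, was above 0, at 0.03, with a mean of at least 5 RPKM. The other 3 scalings shifted ratios by -0.03 to -0.0019 and changed the sign of 1 member at most. No paired analysis was possible because each group has 1 library, and no library could be left out. Depth is unknown, so no counting interval bounds the low members.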

Other observations

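Genes of these families in loci of several names could not be given a level of their own. The locus of KCTD14, NDUFC2 and NDUFC2-KCTD14 had 47.3 and 47.1 RPKM, wild type first. That of KLHL23 and PHOSPHO2 had 13.3 and 15.1 RPKM, and that of BTBD8 and KIAA1107 had 2.24 and 1.49 RPKM. KCTD4, KCTD8, KCTD16 and KLHL3, among others of the families, had no line in the values used here.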
